A study of Mus musculus with 16 samples.

Results

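Adenylyl cyclases make cyclic AMP (cAMP), and PACAP, its receptor and the transcription factor CREB act upstream and downstream of it. The genes followed here were the 10 rows of the deposited tables with the symbols *Adcy1*, *Adcy2*, *Adcy3*, *Adcy5*, *Adcy6*, *Adcy8*, *Adcy9*, *Adcyap1*, *Adcyap1r1* and *Creb1*, chosen by name from 24062 genes in the count table. All 10 were also in the FPKM table (fragments per kilobase of exon, scaled to the number of mapped reads), and all 10 passed the filter on low counts in each comparison. RNA was sequenced from whole brains, cerebellum included, of 16 adolescent female C57BL/6J mice at postnatal day 45, with 4 mice in each of 4 groups. WW mice drank only water, NW mice had bottles of 200 µg/ml nicotine for 22 h a day, Water-Ethanol mice had 20% v/v ethanol in drinking-in-the-dark sessions on the last 4 days, and NE mice had both. The final ethanol session lasted 4 h, and the 3 daily bottles of mice not given nicotine held tap water. Nicotine bottles were off the cages during the sessions, so brains were taken after 4 h without nicotine. The paper reports that NE mice drank more ethanol in the final session than Water-Ethanol mice and had higher blood ethanol. Each animal gave 1 library, replicates were numbered in accession order, and the numbers pair no mice.

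PACAP, the peptide encoded by *Adcyap1*, binds the receptor encoded by *Adcyap1r1*, which couples through the stimulatory G protein to the adenylyl cyclases. The membrane cyclases differ in what else sets their activity: *Adcy1*, *Adcy3* and *Adcy8* encode calmodulin-regulated enzymes, *Adcy2* belongs to the group stimulated by G protein beta-gamma subunits, *Adcy5* and *Adcy6* encode enzymes that calcium inhibits, and *Adcy9* encodes a cyclase largely insensitive to forskolin. The cAMP produced activates protein kinase A, which phosphorylates CREB, and CREB binds the cAMP response element (CRE) of its target promoters.

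RefSeq promoters (GRCm38.p6, 250 bases before to 50 after a start site) were on hand for 8 of the 10 genes. The CRE palindrome TGACGTCA was in none of the 10 promoters of these 8 genes, against 1.79% of all 32851 promoters. The CRE half-site TGACG, searched on both strands as TGACG or CGTCA and contained in the palindrome, was in 3 of the 10 promoters (30.0%), 1 of *Adcy9* and 2 overlapping ones of *Adcyap1*, against 20.8% of all promoters. These 2 are shown with the half-site in capitals, the first because *Adcy9* was the gene that passed the test and the second because it is the pathway's ligand, and *Creb1*, which has no such match, is shown for comparison.
Adcy9 (chr16:4420449-4420748, minus strand): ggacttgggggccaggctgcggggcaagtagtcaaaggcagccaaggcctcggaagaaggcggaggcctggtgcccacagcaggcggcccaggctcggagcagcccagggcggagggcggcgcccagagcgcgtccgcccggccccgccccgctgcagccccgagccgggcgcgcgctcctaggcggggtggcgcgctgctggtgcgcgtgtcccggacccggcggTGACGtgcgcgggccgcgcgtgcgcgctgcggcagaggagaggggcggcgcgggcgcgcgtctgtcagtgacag
Adcyap1 (chr17:93198918-93199217, plus strand): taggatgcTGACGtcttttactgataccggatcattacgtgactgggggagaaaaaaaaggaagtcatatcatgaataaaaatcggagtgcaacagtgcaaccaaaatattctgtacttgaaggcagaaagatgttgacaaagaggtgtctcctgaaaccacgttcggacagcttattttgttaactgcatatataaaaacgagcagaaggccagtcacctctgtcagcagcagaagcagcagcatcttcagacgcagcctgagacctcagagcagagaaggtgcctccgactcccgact
Creb1 (chr1:64532554-64532853, plus strand): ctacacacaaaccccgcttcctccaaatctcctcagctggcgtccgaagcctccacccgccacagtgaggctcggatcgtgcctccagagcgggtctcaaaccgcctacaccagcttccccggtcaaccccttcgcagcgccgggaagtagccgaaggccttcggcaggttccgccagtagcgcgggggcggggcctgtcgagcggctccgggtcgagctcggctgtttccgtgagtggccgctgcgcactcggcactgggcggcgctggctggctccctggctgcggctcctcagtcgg
In mm10, the build of the deposited files, *Adcy9* spans chromosome 16 from 4284886 to 4420498 on the minus strand with 11 exons, *Adcyap1* spans chromosome 17 from 93199422 to 93205489 with 5 exons, and *Creb1* spans chromosome 1 from 64532804 to 64604548 with 9 exons, both on the plus strand. The half-site began 24 bases before the start site in *Adcy9*. In *Adcyap1* it began 242 bases before the start site of the window shown and 91 bases before that of a second, overlapping window.

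Among the 10 genes, *Adcy9* was the one that passed the test for a rise in mice that drank ethanol. Its transcript was 1.12-fold higher over the 8 ethanol mice than over the 8 mice given no ethanol (WW and NW). It was 1.17-fold higher in NE than in WW mice, a difference that passed in 7 of 19 alternative fits. *Creb1* was lower in each treated group than in WW mice by 0.18 to 0.27 on the log2 scale, and *Adcy6* was higher in both ethanol groups, but neither passed the test. The fitted ethanol effect on *Adcy6*, 1.16-fold, was larger than that on *Adcy9*, and it passed in 8 of 27 alternative fits. The paper, with another test, lists *Adcy6* as upregulated in mice given ethanol alone. By pathway analysis it also names *Adcyap1* and *Adcy5* as upstream regulators of genes changed in those mice, and *Creb1* for nicotine alone. These regulators are listed there with their changed target genes. No member passed the test for nicotine alone.

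Total counts ranged from 27100352 to 32880979 per mouse. Cerebellum markers set 2 mice apart: their score (mean log2 CPM of 12 cerebellar genes, relative to the mean over mice) was -1.32 in WW replicate 4 and -0.87 in NW replicate 3, and 0.037 to 0.25 in the other 14. All listed markers of cerebellum, striatum (10), cortex and hippocampus (10) and olfactory bulb (10) passed the filter. Counts also leaned on GC content by group: the slope of a mouse's deviation on transcript GC, per 10% GC, was -0.081 to -0.035 log2 in the 4 WW mice and -0.021 to 0.12 in the other 12. Libraries are bulk brain, so fewer cells of a type and less RNA per cell cannot be told apart.

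Per length, *Adcy1* was the most abundant of the 10 transcripts, with FPKM of 85.2 to 119 over the 16 mice and a median of 112. *Adcy5* followed at 44.4 to 52.5 FPKM, then the PACAP receptor gene *Adcyap1r1* at 37.8 to 44.1, *Adcy2* at 29.0 to 35.9 and *Adcy9* at 13.8 to 17.3. The ranges of these 5 genes did not overlap between neighbours in the order, and the lowest *Adcy9* value lay just above the highest *Adcy3* value. *Adcy3* (11.8 to 13.7), *Creb1* (8.52 to 12.8), *Adcy6* (8.30 to 12.7), *Adcyap1* (9.53 to 11.7) and *Adcy8* (8.97 to 10.1) overlapped along the order. Of the 3 cyclase genes that are no members, *Adcy7* (1.72 to 2.61 FPKM) and *Adcy4* (1.37 to 2.03) were lower than any of the 10, and *Adcy10*, the soluble cyclase, was at 0.0068 to 0.088 and did not pass the filter.

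**Figure D1:**
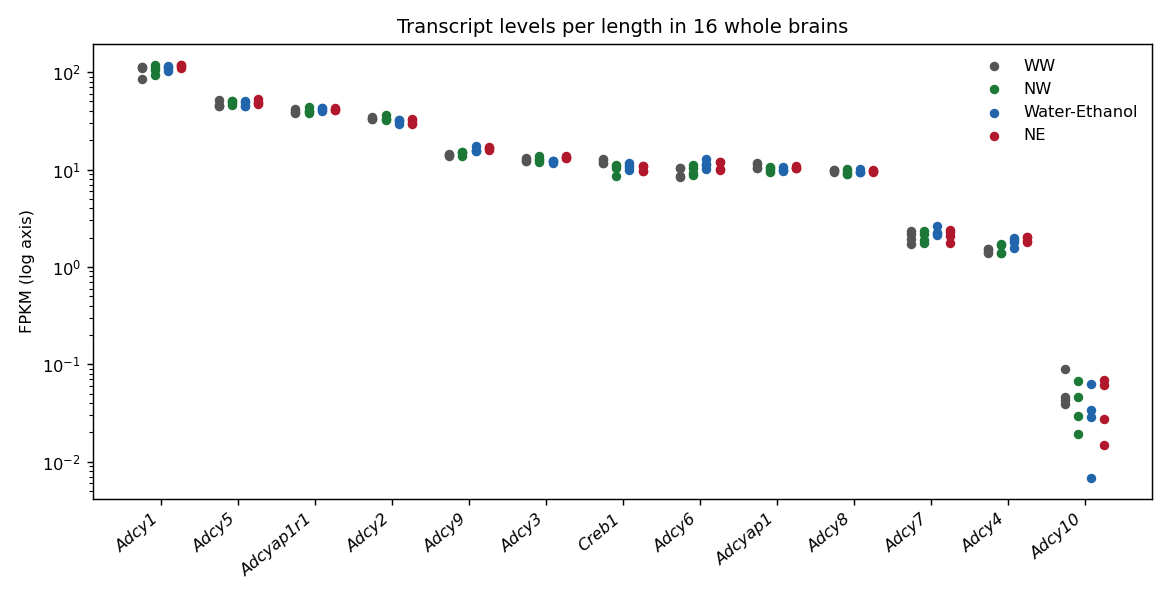
FPKM of the 10 genes and of *Adcy7*, *Adcy4* and *Adcy10* in 16 whole brains, on a log axis; each point is a mouse and colours mark the 4 groups. Levels run from *Adcy1*, with a median of 112 FPKM, to *Adcy10*, whose highest mouse was at 0.088 FPKM.

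*Adcy1* also made up the largest share of summed FPKM over the 10 cyclase genes, 44.9% ± 4.24 (SD, n = 4) in WW, 44.5% ± 3.25 in NW mice, 45.7% ± 0.92 in Water-Ethanol mice and 46.04% ± 0.70 in NE mice. *Adcy5* held 19.5% to 20.5% in the group means and *Adcy2* held 12.5% to 14.3%. The share of *Adcy9* was 6.03% ± 0.39 in WW, 6.14% ± 0.36 in NW mice, 6.63% ± 0.25 in Water-Ethanol mice and 6.60% ± 0.33 in NE mice. *Adcy1* came first and *Adcy5* next in each group.

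The count test was edgeR's quasi-likelihood test with Benjamini-Hochberg adjustment over all genes tested, and a gene was called at an adjusted p under 0.05. In NW against WW, no member was called and 0% of 15344 genes were. At an unadjusted p under 0.05, 1 member (*Creb1*) stood beside 8.44% of all genes. Other fits called genes there but 0 members. They called 112 of 15592 genes with all 16 mice fitted together, 123 of 15344 with DESeq2 and 113 of 15344 with edgeR's likelihood-ratio test. In Water-Ethanol against WW, 0 of 10 members were called beside 0.457% of genes, and 4 (*Adcy2*, *Adcy6*, *Adcy9* and *Creb1*) had an unadjusted p under 0.05 beside 19.3%. DESeq2 called 2 members there (*Adcy6* and *Adcy9*) beside 603 of 15323 genes. The likelihood-ratio test called the same 2 beside 620 of 15323. In NE against WW, 1 of 10 was called (*Adcy9*) beside 0.313% of genes, and 5 (*Adcy3*, *Adcy6*, *Adcy9*, *Adcyap1r1* and *Creb1*) had an unadjusted p under 0.05 beside 17.5%. These 3 comparisons share the 4 WW mice.

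In the ethanol effect over 16 mice, 1 of 10 was called (*Adcy9*) beside 4.50% of genes, and 3 (*Adcy2*, *Adcy6* and *Adcy9*) had an unadjusted p under 0.05 beside 22.9%, so the unadjusted count sat near the level of all genes. In the nicotine effect 0 were called, and 2 (*Adcy3* and *Creb1*) had an unadjusted p under 0.05 beside 10.3%. In NE against Water-Ethanol mice (1 member at an unadjusted p under 0.05, *Adcy3*, beside 5.80%), in NE against NW (1, *Adcy9*, beside 11.9%) and in the interaction (1, *Adcyap1*, beside 6.76%) 0 members were called, and the main quasi-likelihood test called 0 genes in all. In NE against NW, 57 of 15592 genes were called with all 16 mice fitted together and 94 of 15361 with DESeq2. DESeq2 and the likelihood-ratio test called 0 members in NW against WW, NE against Water-Ethanol, NE against NW, the nicotine effect and the interaction. The median log2 fold change of the 10 members was 0.016 in the ethanol effect, beside 0.0021 over all genes, and 0.021 in the nicotine effect, beside 0.0032.

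**Figure D2:**
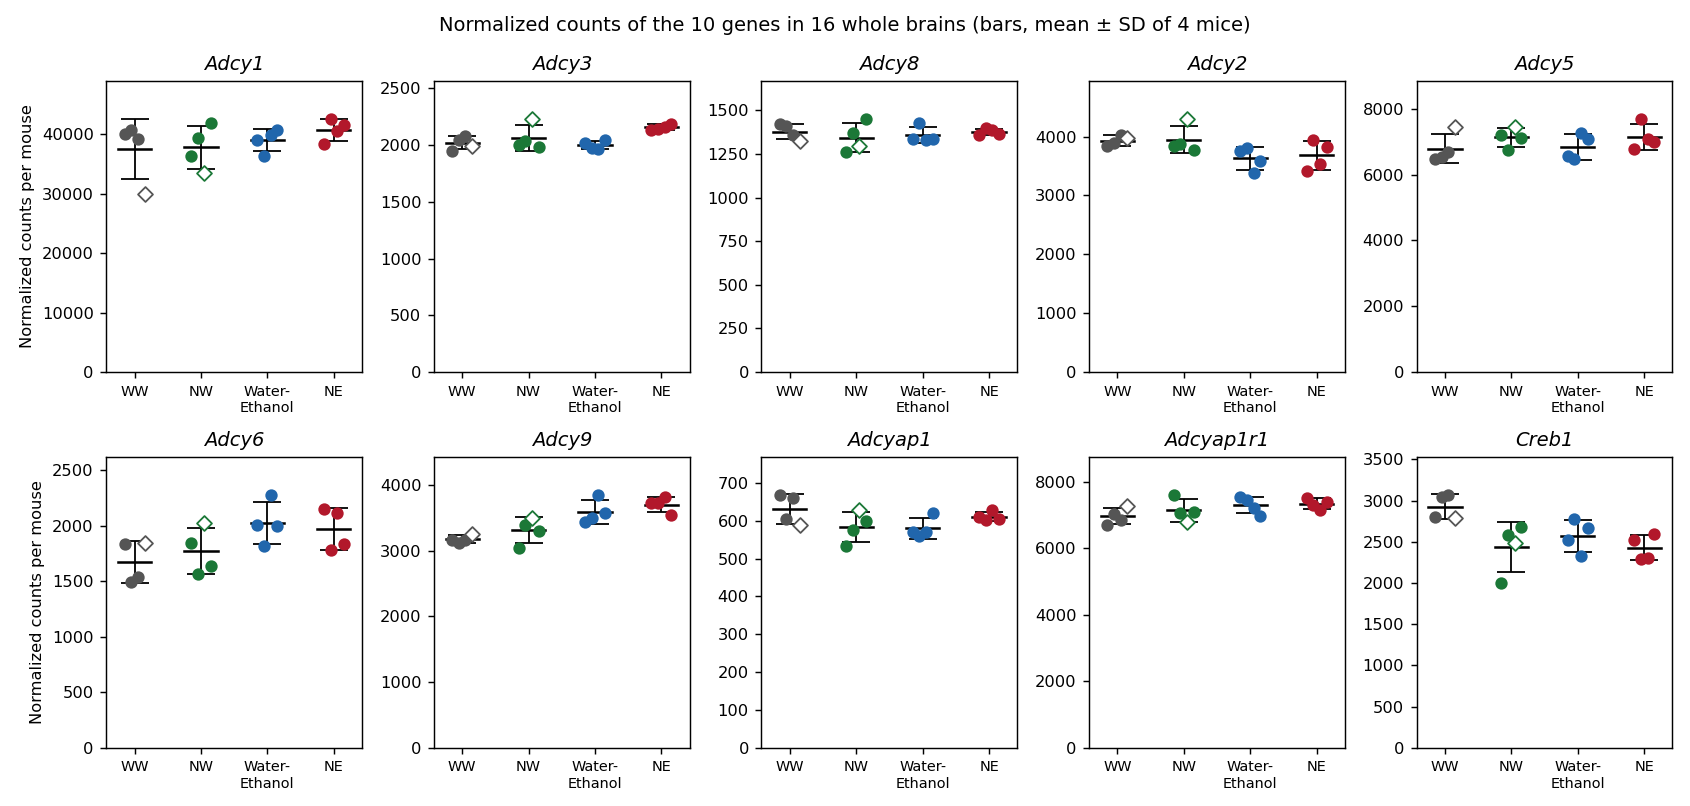
Normalized counts (counts scaled to a common library size) of the 10 genes for each mouse, with the mean and SD of 4 mice per group; open diamonds are the 2 mice low in cerebellum genes. For *Adcy9*, the Water-Ethanol and NE mice, at 3439 to 3853, all lie above the WW mice, at 3124 to 3258; for *Creb1* the WW mice, at 2788 to 3072, lie above the mice of each other group.

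*Adcy9* read 3168, 3124, 3169 and 3258 normalized counts in the WW mice. It read 3039, 3390.4, 3504 and 3298 in NW mice. Water-Ethanol mice had 3439, 3501, 3853 and 3571, and NE mice had 3721, 3719, 3825 and 3546. Both ethanol groups lay wholly above WW, NW overlapped WW and Water-Ethanol, and NE lay wholly above NW. The means were 3179.8 ± 56.2 (SD, n = 4) in WW, 3308 ± 198 in NW mice, 3591 ± 183 in Water-Ethanol mice and 3703 ± 116 in NE mice.

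The fitted ethanol effect on *Adcy9* was a log2 fold change of 0.17 ± 0.032 (SE) with an adjusted p of 0.0080. In NE against WW the log2 fold change was 0.22 ± 0.035 (adjusted p = 0.037), and in Water-Ethanol against WW it was 0.18 ± 0.040 (adjusted p = 0.068). NE against NW gave 0.16 ± 0.048 (adjusted p = 0.26), NW against WW gave 0.058 ± 0.048 (adjusted p = 0.77), and the interaction was -0.013 ± 0.064 (adjusted p = 0.99). Across the 27 other settings and left-out mice the ethanol effect on *Adcy9* was 0.15 to 0.19 and was called each time, with adjusted p from 1.1e-04 to 0.022. The NE against WW call held in 7 of 19 alternatives, and with 1 mouse left out it held only without WW replicate 4; its adjusted p ranged from 3.0e-05 to 0.18.

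Transcript GC of *Adcy9* was 55.1%, above the median of 50.9% for tested genes, and the GC slopes given above differed between WW and ethanol mice. With counts corrected for GC in each mouse, the ethanol effect on *Adcy9* was 0.16 ± 0.033 (adjusted p = 0.011) and NE against WW was 0.18 ± 0.033 (adjusted p = 0.070). With cerebellum and olfactory bulb scores as covariates, the ethanol effect was 0.17 ± 0.031 (adjusted p = 0.0081). Without the 2 mice low in cerebellum genes it was 0.19 ± 0.033 (adjusted p = 0.0038).

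Marker scores of other cell types and regions also differed between WW and the ethanol groups. The astrocyte score (8 genes, all tested) was 0.014 to 0.11 in WW, -0.081 to 0.0058 in Water-Ethanol and -0.051 to -0.0055 in NE mice, so that both ethanol groups lay wholly below WW, and it was -0.10 to 0.10 in NW mice. The meninges score (8 genes, all tested) was -0.035 to 0.45 in WW and -0.19 to -0.088 in NE mice, with no overlap, and -0.26 to 0.13 in Water-Ethanol mice. The olfactory bulb score averaged 0.23 ± 0.068 in WW, -0.060 ± 0.28 in NW mice, -0.10 ± 0.38 in Water-Ethanol mice and -0.065 ± 0.26 in NE mice. The mean oligodendrocyte score (8 genes, all tested) was higher without ethanol than with it. WW and NW averaged 0.11 ± 0.13 and 0.060 ± 0.14, while Water-Ethanol and NE averaged -0.11 ± 0.084 and -0.056 ± 0.12. Ranges overlapped, with WW mice at -0.080 to 0.20, Water-Ethanol mice at -0.23 to -0.050 and NE mice at -0.18 to 0.11. The part of the astrocyte, oligodendrocyte and meninges scores in the *Adcy9* and *Creb1* differences from WW, or in the *Adcy9* ethanol effect, was not tested.

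*Adcy6*, which encodes a calcium-inhibited cyclase, read 1839, 1489, 1536 and 1840.3 normalized counts in WW mice and 1848, 1568, 2025 and 1640.2 in NW mice. Water-Ethanol mice had 2003, 1816, 2279 and 1999, and NE mice had 2149, 1777, 2118 and 1835. The ethanol groups had higher means, 2024 ± 191 and 1969.7 ± 191 against 1676 ± 189.8 in WW, but overlapped WW, whose mice lay at 1489 and 1536 and at 1839 and 1840.3. The log2 fold change was 0.28 ± 0.081 in Water-Ethanol against WW (adjusted p = 0.11), 0.24 ± 0.083 in NE against WW (adjusted p = 0.18) and 0.21 ± 0.065 in the ethanol effect (adjusted p = 0.063). Of 27 alternatives, 8 called the ethanol effect, with values of 0.18 to 0.27 in all; DESeq2 gave an adjusted p of 0.026 and the likelihood-ratio test 0.030.

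*Adcy5*, the other calcium-inhibited cyclase and an enzyme abundant in striatal neurons, read 6485 to 7451 in WW, 6739 to 7454 in NW, 6483 to 7269 in Water-Ethanol and 6781 to 7689 in NE mice. Its groups overlapped in every comparison, and its ethanol effect was 0.0060 ± 0.037 (adjusted p = 0.94), a value whose sign turned when counts were corrected for GC.

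*Adcy2* read 3832, 3894, 4031 and 3973 in WW and 3841, 3879.8, 4298 and 3779 in NW mice, against 3756, 3798, 3379 and 3588 in Water-Ethanol and 3422, 3943, 3536 and 3829 in NE mice. Water-Ethanol mice lay wholly below WW mice, and NE mice overlapped them. The ethanol effect was -0.11 ± 0.036 (adjusted p = 0.091), and it was -0.071 ± 0.035 (adjusted p = 0.24) with the region scores as covariates; 0 of 27 alternatives called it.

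*Adcy3* read 1951, 2044, 2083 and 1996 in WW, 1999, 2039, 2229 and 1983 in NW, 2019, 1973, 1962 and 2047 in Water-Ethanol and 2134, 2138, 2162 and 2189 in NE mice. NE mice lay above all WW and all Water-Ethanol mice, but 1 NW mouse, replicate 3, was higher than all NE mice. The log2 fold change was 0.097 ± 0.035 in NE against WW (adjusted p = 0.19) and 0.11 ± 0.035 in NE against Water-Ethanol (adjusted p = 0.83). Exons of *Adcy3* share 1045 bases with *Cenpo* on the opposite strand, and since the counting is not stated to use strand, reads there could belong to either gene.

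*Adcy1* ranged from 29957 to 40677 in WW, from 33526 to 41899.9 in NW, from 36348 to 40776 in Water-Ethanol and from 38256 to 42545 in NE mice. The lowest WW mouse and the lowest NW mouse were the 2 low in cerebellum genes. Its log2 fold change in Water-Ethanol against WW was 0.061 ± 0.080 (adjusted p = 0.71) with all mice and -0.032 without WW replicate 4, the 1 of the 2 in that comparison. *Adcy8* ranged from 1325 to 1424 in WW, 1260.0 to 1451 in NW, 1332 to 1428 in Water-Ethanol and 1358 to 1397 in NE mice, and its fitted differences from WW lay between -0.035 and 5.5e-05, each within 1 SE of 0.

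At the end of the pathway, *Creb1* read 2804, 3041, 3072 and 2788 in WW mice. NW mice had 2002, 2583, 2492 and 2682, Water-Ethanol mice had 2520.0, 2776, 2327 and 2663, and NE mice had 2522, 2291, 2304 and 2592. The WW mice lay wholly above each treated group, the closest pair being 2788 in WW and 2776 in Water-Ethanol mice, while the treated groups overlapped one another. The 3 comparisons rest on the same 4 WW mice.

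The log2 fold change of *Creb1* was -0.26 ± 0.079 in NW against WW (adjusted p = 0.35), -0.18 ± 0.055 in Water-Ethanol against WW (adjusted p = 0.11) and -0.27 ± 0.052 in NE against WW (adjusted p = 0.058). DESeq2 gave an adjusted p of 8.3e-04 in NE against WW and the likelihood-ratio test 0.0021, and 4 of 19 alternatives called *Creb1* there. Between treated groups the difference was small: -0.0094 ± 0.079 in NE against NW (adjusted p = 0.97) and -0.084 ± 0.056 in NE against Water-Ethanol (adjusted p = 0.85).

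*Creb1* has a transcript GC of 45.2%, below the median, and the mouse with its lowest value, NW replicate 1, had the steepest GC slope, 0.12. Counts of *Rn45s*, a ribosomal RNA precursor, made up 1.37% of that library and 3.90% of NW replicate 3, against 0.274% to 0.729% in the other 14, and their part in the NW differences was not tested. With the GC correction the log2 fold changes from WW were -0.21 ± 0.066 in NW (adjusted p = 0.69), -0.16 ± 0.053 in Water-Ethanol (adjusted p = 0.16) and -0.22 ± 0.049 in NE mice (adjusted p = 0.11). The part of GC content in the remaining difference was not tested.

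Groups that did not overlap were counted for all genes too. In NW against WW, 1 member (*Creb1*) did so beside 5.96% of genes; in Water-Ethanol against WW, 3 members (*Adcy2*, *Adcy9*, *Creb1*) beside 10.8%; in NE against WW, 3 (*Adcy3*, *Adcy9*, *Creb1*) beside 10.7%. NE against Water-Ethanol had 1 (*Adcy3*) beside 3.51%, and NE against NW had 1 (*Adcy9*) beside 7.43%. The 8 ethanol mice against the 8 mice given no ethanol (WW and NW) had 0 beside 0.667%.

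**Figure D3:**
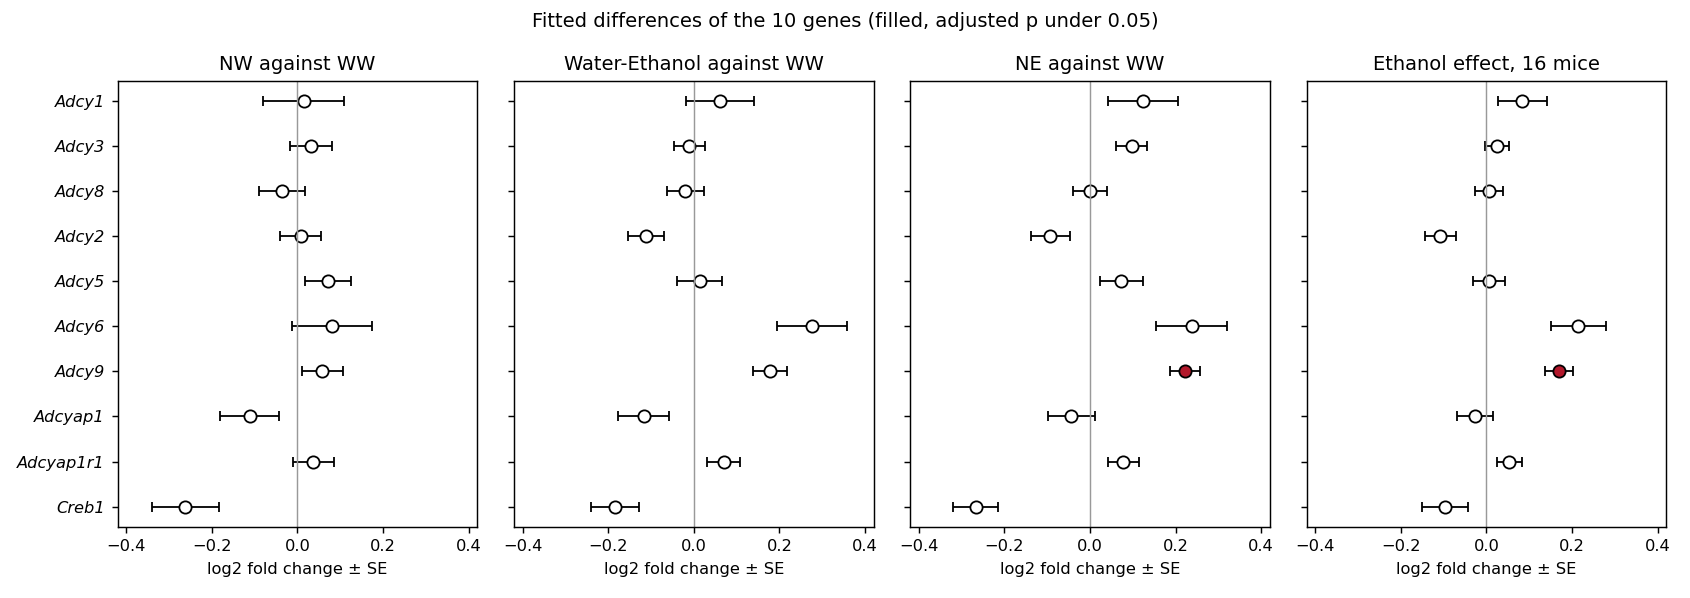
Fitted log2 fold change of each gene with its SE in 3 comparisons with WW (4 mice against 4) and in the ethanol effect over 16 mice; filled points have an adjusted p under 0.05. *Adcy9* is filled in NE against WW, at 0.22, and in the ethanol effect, at 0.17, and *Creb1* lies left of 0 in all 4 panels.

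**Figure D4:**
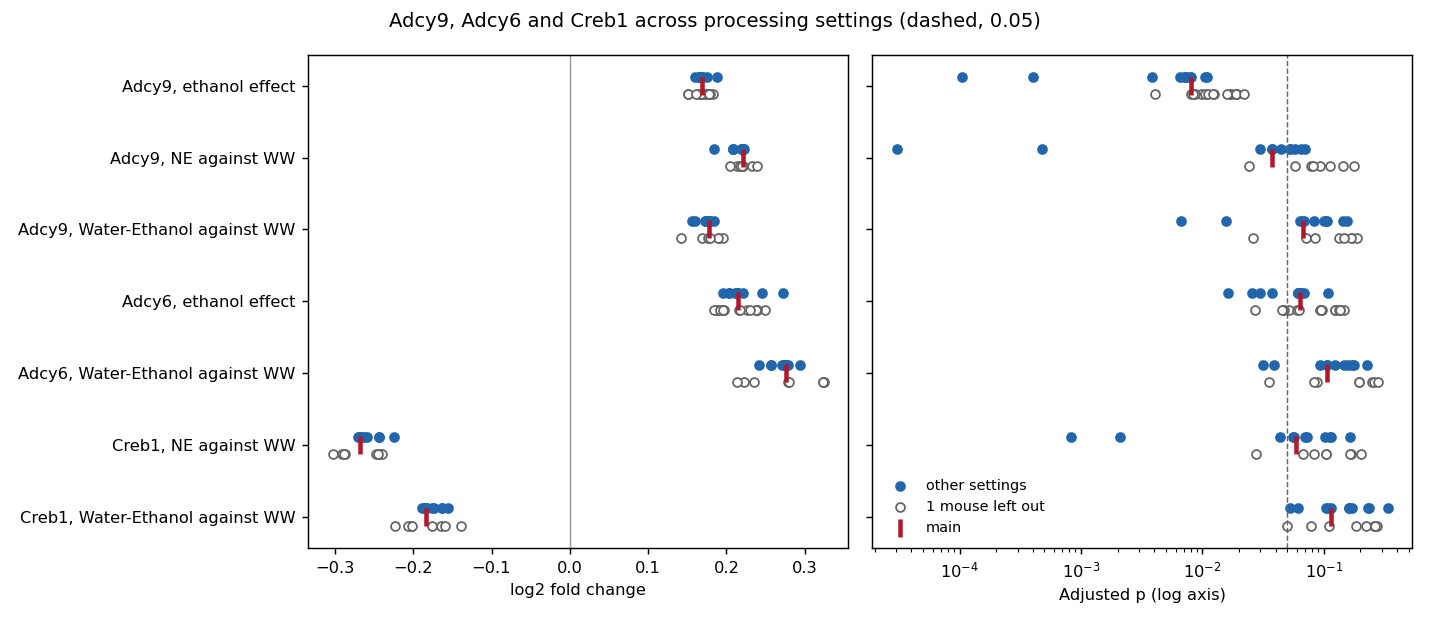
Log2 fold change (left) and adjusted p (right, log axis; dashed line at 0.05) of *Adcy9*, *Adcy6* and *Creb1* under the main test (red), other settings (blue) and with 1 mouse left out (open). No point changes sign, and the *Adcy9* ethanol effect is the row that stays left of 0.05 throughout, its highest adjusted p being 0.022.

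*Adcyap1*, the PACAP gene, read 669, 605, 661 and 589 in WW, 533, 574, 628 and 599 in NW, 571, 560.0, 569.7 and 621 in Water-Ethanol and 609, 603, 628 and 604 in NE mice. All 4 groups overlapped in part. The log2 fold change from WW was -0.11 ± 0.068 in NW (adjusted p = 0.69), -0.12 ± 0.059 in Water-Ethanol (adjusted p = 0.30) and -0.044 ± 0.055 in NE mice (adjusted p = 0.73), and the interaction was 0.19 ± 0.083 (unadjusted p = 0.036, adjusted p = 0.71).

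The receptor gene *Adcyap1r1* read 6714, 7024, 6851 and 7282 in WW, 7616, 7058, 6796 and 7091 in NW, 7534, 7448, 7223 and 6984 in Water-Ethanol and 7530.0, 7316, 7147 and 7383 in NE mice. Means were 6968 ± 245 in WW and 7344 ± 159 in NE mice, with a log2 fold change of 0.078 ± 0.036 (adjusted p = 0.29), and groups overlapped.

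Within groups, however, mice with more *Adcyap1* had less *Adcyap1r1*. Over 16 mice centred on their group means, Pearson's r of log2 CPM (counts scaled to library size) was -0.90 (permutation p = 3.1e-04, adjusted over the 45 pairs of members p = 0.014) and Spearman's rho was -0.83 (permutation p = 0.0018, adjusted p = 0.080). Without the 2 mice farthest from the median of *Adcyap1*, WW replicate 1 and NW replicate 1, r was -0.82. After the GC correction r was -0.86; the transcript GC of the 2 genes is 46.7% and 56.0%. It was the 1 pair of 45 with an adjusted Pearson p under 0.05. How many pairs among all genes reach such an r was not counted, and the 3 genes most like each member, given below, had r from 0.82 to 0.98. With the cortex and hippocampus marker score, r was 0.50 for *Adcyap1* and -0.54 for *Adcyap1r1* (permutation test, adjusted p = 0.42 for each). The part of that score in the relation was not tested.

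Members were also set beside marker scores of 4 brain regions, 40 relations in all, each centred on group means. *Adcy5* was higher in mice with a higher striatum score, with r = 0.91 (permutation p = 3.1e-04, adjusted p = 0.012) and rho = 0.77 (permutation p = 0.0021); without WW replicate 4 and NW replicate 3, r was 0.84 (permutation p = 0.0069, adjusted p = 0.28) and rho was 0.81. For *Adcy1* and the cerebellum score, the 2 low mice form a cluster of their own, so no pooled value is given; within the other 14 mice r was 0.45 (permutation p = 0.085, adjusted p = 0.74) and rho was 0.35 (permutation p = 0.19). Of the 2 mice low in cerebellum genes, *Adcy1* read 29957 and 33526, below every other mouse.

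**Figure D5:**
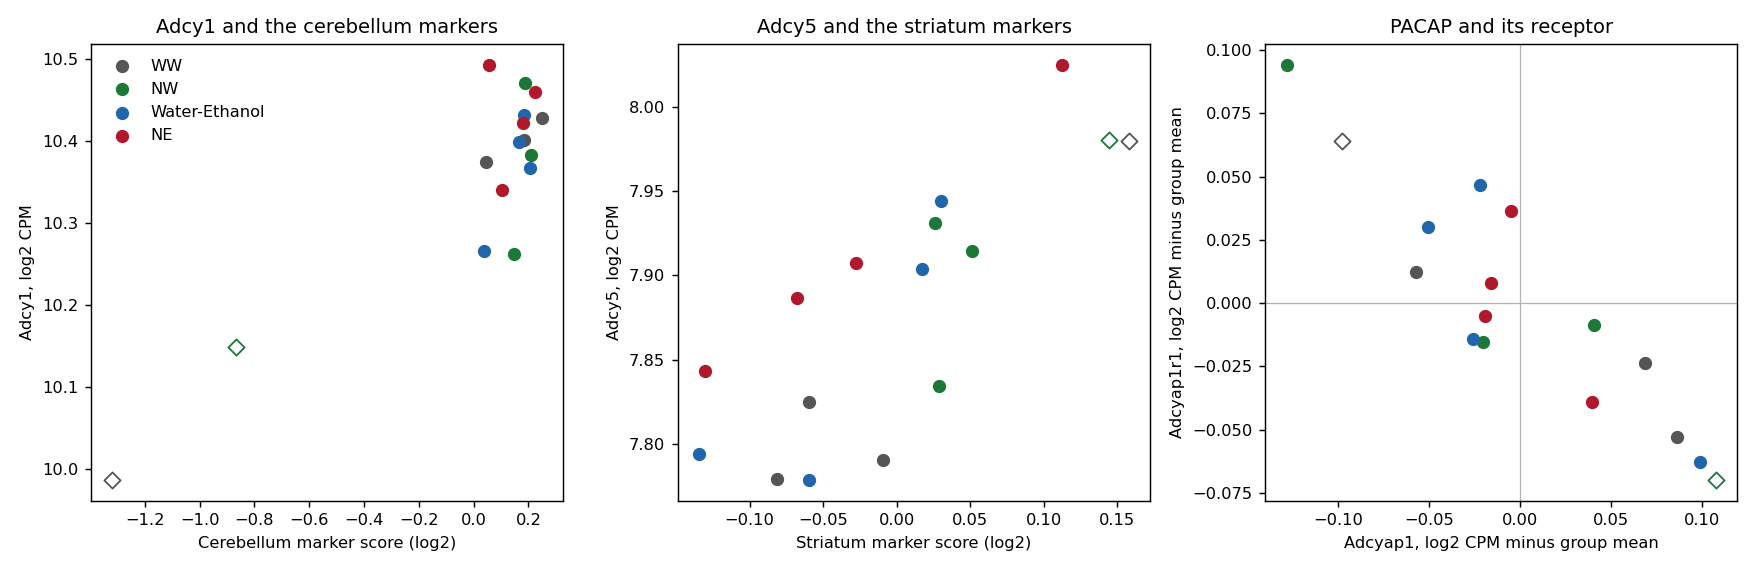
*Adcy1* log2 CPM against the cerebellum score (left), *Adcy5* log2 CPM against the striatum score (middle), and *Adcyap1* against *Adcyap1r1* as log2 CPM minus the group mean (right); points are mice and open diamonds the 2 mice low in cerebellum genes. The diamonds stand apart at -1.32 and -0.87 on the left, and the right panel falls from upper left to lower right (r = -0.90).

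The genes most like each member, by Pearson's r of group-centred log2 CPM over the 16 mice, are given as a description with no test. *Adcy1* was closest to *Exph5* (0.96), *Itpr1* (0.95), an inositol trisphosphate receptor and itself one of the 12 cerebellum markers, and *Gpc6* (0.95), but these values include the 2 mice low in cerebellum genes. Over the other 14 mice they were 0.89, 0.81 and 0.92. *Adcy5* was close to *Dos* (0.91) and *Drd1a* (0.90), a dopamine receptor, and *Adcy2* to *Tusc3* (0.93), *Slc17a7* (0.93), a vesicular glutamate transporter, and *Tubb2a* (0.91). *Drd1a* is on the striatum marker list and *Slc17a7* on that of cortex and hippocampus, so they are not separate from the region scores. *Adcy6* was closest to *Ogt* (0.98), *Abcc5* (0.98) and *Rbm33* (0.97), *Adcy9* to *Zfp334* (0.88), *Slc36a1* (0.88) and *AU022252* (0.86), and *Adcy3* to *Pdk1* (0.87), *Mef2d* (0.86) and *Nkain3* (0.83). *Adcy8* had *Ube2q2* (0.95), *Map7d2* (0.91) and *Ap1s2* (0.91). *Adcyap1* had *Mtmr1* (0.85), *Omd* (0.83) and *Soga3* (0.82), and *Adcyap1r1* had *Gstm4* (0.92), *Ctsa* (0.87) and *9530082P21Rik* (0.86). For *Creb1* they were a gene listed under a date in place of its symbol (0.93), *Fgf12* (0.93) and *Trip4* (0.93).

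Around the 10 genes, 7 lists of pathway genes held 68 genes, of which 67 were tested. In the ethanol effect 4 of the 67 were called, 3 higher and 1 lower, or 5.97% beside 4.50% of all genes. The main quasi-likelihood test called 0 of them in each of the other comparisons. With all 16 mice fitted together, it called *Gnai3* and *Ppargc1a* in NW against WW. At an unadjusted p under 0.05 the ethanol effect had 24 of 67 (16 higher, 8 lower), or 35.8% beside 22.9% of all genes. NW against WW had 10 (2 higher, 8 lower), or 14.9% beside 8.44%, Water-Ethanol against WW had 18 (10 and 8), or 26.9% beside 19.3%, and NE against WW had 9 (5 and 4), or 13.4% beside 17.5%. NE against Water-Ethanol had 4 (2 and 2), or 5.97% beside 5.80%, NE against NW 13 (10 and 3), or 19.4% beside 11.9%, the nicotine effect 9 (3 and 6), or 13.4% beside 10.3%, and the interaction 6 (6 and 0), or 8.96% beside 6.76%. DESeq2 called *Gnai1* and *Gnai3* in NW against WW, *Sik1* and *Crtc2* in Water-Ethanol against WW, *Adcy4* in NE against WW and *Pde3b* in the nicotine effect. The likelihood-ratio test called the same genes in the first 3 of these, and also *Vipr2* in Water-Ethanol against WW. In the ethanol effect DESeq2 also called *Gnao1* and *Fosb* (log2 fold change 0.31, adjusted p = 0.039). It called *Penk* (-0.11, adjusted p = 0.030) and *Sst* (-0.13, adjusted p = 0.047), both lower. The likelihood-ratio test called *Fosb* there (adjusted p = 0.048). The fit with region scores as covariates called *Fosb* (adjusted p = 0.048) and *Pde4a* (0.17, adjusted p = 0.010). *Gnai1*, *Gnai3*, *Ppargc1a*, *Crtc2*, *Pde3b*, *Fosb*, *Penk*, *Sst* and *Pde4a* were chosen after their values were seen.

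Upstream of the cyclases, the main quasi-likelihood test called none of the 7 G protein alpha subunits. The smallest p in the ethanol effect was that of *Gnao1*, the alpha subunit of Go (log2 fold change -0.054 ± 0.023, adjusted p = 0.16). DESeq2 called *Gnao1* there, with an adjusted p of 0.041. In NW against WW, 2 inhibitory subunits were lower without passing the test: *Gnai1* at -0.29 ± 0.072 (unadjusted p = 0.0019, adjusted p = 0.25) and *Gnai3* at -0.21 ± 0.046 (unadjusted p = 7.7e-04, adjusted p = 0.22). DESeq2 gave them adjusted p of 0.030 and 0.021, and the likelihood-ratio test 0.048 and 0.047. The quasi-likelihood fit of all 16 mice called *Gnai3* in NW against WW (-0.21 ± 0.044, adjusted p = 0.035). The interaction terms of *Gnai1* and *Gnai3* were 0.28 ± 0.095 (adjusted p = 0.68) and 0.21 ± 0.063 (adjusted p = 0.65). Among other cyclases and genes of the PACAP and VIP family, *Adcy4* rose in ethanol mice, with means of 148 ± 9.42 in WW, 157 ± 26.1 in NW mice, 183 ± 18.5 in Water-Ethanol mice and 192 ± 14.0 in NE mice and a log2 fold change of 0.31 ± 0.077 (adjusted p = 0.032). *Adcy7* (0.052 ± 0.068, adjusted p = 0.68), *Vip* (0.0045 ± 0.065, adjusted p = 0.98) and the VIP receptor genes *Vipr1* (-0.011 ± 0.071, adjusted p = 0.94) and *Vipr2* (0.19 ± 0.088, adjusted p = 0.20) did not pass. The interaction term of *Vip* was 0.30 ± 0.13 and did not pass (unadjusted p = 0.033, adjusted p = 0.71).

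Of 16 cAMP phosphodiesterases, which break the messenger down, *Pde8a* fell in ethanol mice, from 633 ± 37.5 in WW and 653 ± 63.1 in NW to 563 ± 32.7 in Water-Ethanol and 549 ± 32.3 in NE mice (log2 fold change -0.21 ± 0.050, adjusted p = 0.022). Among 9 subunits and inhibitors of protein kinase A none was called, and *Prkar1b*, a regulatory subunit, had the smallest p (-0.078 ± 0.029, adjusted p = 0.12). Of the 2 Epac exchange factors, *Rapgef4* read -0.086 ± 0.034 (adjusted p = 0.15). Of 8 relatives and coactivators of CREB, *Crtc3*, a CREB coactivator, rose in the ethanol effect (0.18 ± 0.050, adjusted p = 0.047).

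Of 20 CREB target genes, *Sik1*, a salt-inducible kinase gene, was the one the main quasi-likelihood test called in the ethanol effect (0.34 ± 0.090, adjusted p = 0.040). Its means were 591 ± 23.6 in WW, 488 ± 117 in NW mice, 692 ± 44.5 in Water-Ethanol mice and 661 ± 93.9 in NE mice. At an unadjusted p under 0.05, 7 of the 20 were higher and 2 lower in the ethanol effect, beside 22.9% of all genes. The list's median log2 fold change was 0.15 in the ethanol effect and -0.19 in NW against WW, beside 0.0021 and 0.0096 over all genes. The main test called no list member in NW against WW. With all 16 mice fitted together it called *Ppargc1a* there (-0.21 ± 0.047, adjusted p = 0.047). The paper, with another test, reports *Fos*, *Nr4a1* and *Egr2* of this list as lower in NW mice, and names *Creb1* as an upstream regulator. Of 25 promoters of 13 of these target genes, 15 held the half-site (60.0%, beside 20.8% of all promoters) and 2, of *Dusp1* and *Sst*, the palindrome (8.0%, beside 1.79%). Of 27 alternatives, 22 called *Pde8a*, 18 *Adcy4*, 15 *Sik1* and 9 *Crtc3* in the ethanol effect; with 1 mouse left out the calls held in 12, 7, 7 and 4 of 16 fits.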

How the data were processed

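Whole-brain RNA libraries of 16 mice were analysed. The authors trimmed reads with Trimmomatic 0.32 and aligned them to mm10 with TopHat2; per the submitters' processing notes bcl2fastq 1.8.4, FastQC, Cufflinks and Cuffdiff were also used. The deposited counts are raw reads per gene, and the deposited FPKM are per gene and mouse from the Cufflinks tools, with no pooling. The labels name an unstranded kit while the study's methods describe a stranded library, and the counting program and its use of strand are not given in the sources used here. Per-mouse totals were 27100352 to 32880979 counts, and each SE reflects the spread between separate mice.

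Genes were filtered with filterByExpr and tested with edgeR 4.0.16 (TMM factors, quasi-likelihood F test, Benjamini-Hochberg adjustment, threshold 0.05) in R 4.3.3. Pairs of groups were fitted alone. All 16 mice were fitted together for the effects of ethanol and nicotine and for their interaction. Each SE was taken as the size of the log2 fold change over the root of F. Alternatives were DESeq2 1.42.0, edgeR's likelihood-ratio test, RLE factors, other filters, limma 3.58.1 on log2(FPKM + 1) and log2(FPKM + 0.1), where fold changes of low genes are understated, region scores as covariates, and each mouse left out. A GC correction and, where a comparison held both, a fit without the 2 mice low in cerebellum genes were added after seeing the data. Correlations used 100000 permutations within groups. The main test and DESeq2 were also run on simulated counts drawn separately for each gene, with outcomes not reported here. Those counts lacked the cerebellum and GC differences between mice, so the runs cannot show how these differences act on the fits.

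The members and gene lists were chosen with earlier results of these data known. Named genes were the members, the other cyclases, *Vip* and its receptors, each pathway gene with an adjusted p under 0.05 or, where a list had none, that with the smallest p in the ethanol effect, and the 3 genes most like each member, of which 1 is not reported here. Columns holding the samples were matched by name to the labels.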

Additional observations from a re-analysis of the deposited data

Results flagged for a closer look

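*Adcy1* in WW mice had one mouse far from the others: replicate 4 read 29957 normalized counts, and the remaining 3 read 39175 to 40677. The same mouse had the lowest cerebellum score, -1.32, and its part in the value was not tested.

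*Adcy8* in Water-Ethanol mice had one high mouse, replicate 2, whose normalized count was 1428, while the remaining 3 mice lay at 1332 to 1336. Of 40 groups of 4 mice, 2 held such a mouse, and chance gives about 1 in 20 groups, or 2 of 40.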

How the results depend on the processing

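Of 1120 recomputed member log2 fold changes (each group against WW and the effects of ethanol and nicotine), 1022 kept their direction and side of the threshold, 67 changed sign, 19 newly passed and 12 no longer passed. None of the sign changes was in *Adcy9* or *Creb1*. In what follows, brackets give the genes called among all genes tested in the same setting. Members called in Water-Ethanol against WW were 2 with DESeq2 (603 of 15323), 2 with the likelihood-ratio test (620 of 15323) and 0 to 3 with 1 mouse left out (0 to 797 genes). In NE against WW they were 2 without a count filter (53 of 19901), 2 with DESeq2 (517 of 15313) and 2 with the likelihood-ratio test (375 of 15313). They were 0 in each of the 3 FPKM settings (26, 26 and 1 genes). With the region scores as covariates they were 0 (30 of 15592), and with the GC correction 0 (13 of 15313). With 1 mouse left out they were 0 to 2 (0 to 283 genes). The covariates gave 1 in NE against NW (229 of 15592). The ethanol effect had 2 with DESeq2 (1093 of 15592), 2 with the likelihood-ratio test (1046 of 15592) and 2 with the covariates (695 of 15592). It had 2 without the 2 mice low in cerebellum genes (1061 of 15667) and 1 to 2 with 1 mouse left out (280 to 899 genes). Without WW replicate 4, 797 genes were called in Water-Ethanol against WW and 283 in NE against WW, beside 70 and 48 with it. The cause was not tested.

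Brackets again give the genes called among all genes tested. Pathway genes called in NW against WW were 2 with DESeq2 (123 of 15344) and 2 with the likelihood-ratio test (113 of 15344). They were 2 in the fit of 16 mice, *Gnai3* and *Ppargc1a* (112 of 15592), and 1 with the covariates (165 of 15592). In Water-Ethanol against WW they were 2 with DESeq2 (603 of 15323), 3 with the likelihood-ratio test (620 of 15323) and 0 to 6 with 1 mouse left out (0 to 797 genes). In NE against WW they were 1 (517 of 15313), 1 (375 of 15313) and 0 to 2 (0 to 283 genes) in the same settings. NE against NW had 1 with the covariates (229 of 15592). The ethanol effect had 8 with DESeq2 (1093 of 15592), 2 with log2(FPKM + 1) (763 of 13445) and 2 with log2(FPKM + 0.1) (761 of 13445). It had 1 without the FPKM filter (550 of 20291), 7 without the 2 mice (1061 of 15667) and 0 to 6 with 1 mouse left out (280 to 899 genes). The nicotine effect had 1 with DESeq2 (104 of 15592).

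Values that changed sign were small. With the covariates, *Adcy1* read -0.043 in NW and -0.056 in Water-Ethanol against WW, *Adcy3* 0.010 in Water-Ethanol against WW, and *Adcy8* -0.029 in NE against WW and -0.013 in the ethanol effect. With the GC correction, NW against WW read -0.017 for *Adcy1*, -0.013 for *Adcy3*, -0.012 for *Adcy2* and -0.011 for *Adcyap1r1*; *Adcy5* read -0.025 in Water-Ethanol against WW and -0.017 in the ethanol effect, *Adcy8* -0.0071 in NE against WW, and the nicotine effect -0.018 for *Adcy6*, 0.0052 for *Adcyap1* and -0.011 for *Adcyap1r1*. Without the 2 mice, NW against WW read -0.022 for *Adcy1*, -0.0088 for *Adcy3* and -0.027 for *Adcy2*, *Adcy8* read -0.012 in the ethanol effect, and *Adcy2* -0.0044 in the nicotine effect. *Adcy8* in NE against WW read -8.9e-04 with RLE factors, -0.0026 with no filter, -0.0010 with DESeq2, -3.8e-05 with the likelihood-ratio test, -0.0035, -0.0037 and -0.0035 in the FPKM settings and -0.0019 in the fit of 16 mice.

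With 1 mouse left out, NW against WW ranged from -0.077 to 0.060 for *Adcy1*, -0.015 to 0.051 for *Adcy3* and -0.043 to 0.029 for *Adcy2*. Water-Ethanol against WW ranged from -0.032 to 0.10 for *Adcy1*, -0.026 to 0.0047 for *Adcy3* and -0.017 to 0.061 for *Adcy5*, and NE against WW from -0.020 to 0.016 for *Adcy8*. The ethanol effect ranged from -0.0083 to 0.025 for *Adcy8* and -0.013 to 0.030 for *Adcy5*. The nicotine effect ranged from -0.0086 to 0.066 for *Adcy1*, -0.025 to 0.0072 for *Adcy8*, -0.0062 to 0.031 for *Adcy2*, -0.012 to 0.052 for *Adcy6* and -0.035 to 0.0014 for *Adcyap1*. No paired analysis was run, since the groups held separate mice assigned at random.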
